A study of Homo sapiens with 6 samples.

Results

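The enzymes that break down fatty acids and the branched-chain amino acids (BCAA) valine, leucine and isoleucine were followed in HepG2 cells carrying a hairpin against the long noncoding RNA LINC01977. The members were the genes that the annotation in the deposited table lists under the KEGG pathways fatty acid degradation, BCAA degradation or propanoate metabolism. Of 82 such genes, 12 that are also listed under peroxisome, 9 with names starting with ADH, CYP or LDH, and ACAT2, HMGCS1, ACACA and ACSS2 were left out, which left 57 of 29153 genes. The rule itself uses the annotation and gene names, not measured values. Fatty acid degradation lists 23 of the 57, BCAA degradation 41 and propanoate metabolism 22, and 4 are listed in all 3 pathways.

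HepG2 is an established human cell line derived from a liver tumour, which the labels call hepatocellular carcinoma (HCC). The control group (sh-NC) received a lentivirus with a control hairpin and the knockdown group (sh-LINC01977) a lentivirus with a hairpin against LINC01977, both for 72 h, and each group had 3 RNA-seq libraries. All 6 libraries thus share the parent line and lentiviral infection, and the knockdown columns name a single hairpin. Nothing in the labels says that the libraries came from separate cultures, so p-values measure only the spread between these libraries. Total counts ranged from 49929024 to 60441515. The counts of LINC01977 were 4, 0 and 16 in sh-NC and 0, 0 and 4 in sh-LINC01977, and a difference was not detectable at this depth (log2 fold change -2.12, SE 1.96, edgeR adjusted p = 0.580), so groups rest on the labels.

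In β-oxidation, a fatty acid is activated to its coenzyme A (CoA) ester, carried into the mitochondrion as a carnitine ester and shortened in repeated rounds by an acyl-CoA dehydrogenase, an enoyl-CoA hydratase, a hydroxyacyl-CoA dehydrogenase and a thiolase. BCAA are first transaminated and then decarboxylated by the branched-chain keto acid dehydrogenase complex, after which their CoA esters pass through similar dehydrogenation and hydration steps. Valine, isoleucine and odd-chain fatty acids yield propionyl-CoA, which is converted to succinyl-CoA of the citrate cycle. Hepatocytes are a main site of β-oxidation, whereas the first step of BCAA breakdown is known to be weak in liver.

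Levels are given as CPM, counts scaled to a common library size that edgeR's TMM factors correct for composition, which compare libraries for a gene. FPKM values, which also divide by transcript length, compare genes. The quasi-likelihood test of edgeR was fitted to the counts of all 13452 genes whose FPKM averaged 0.5 or more, and a gene is called when its Benjamini-Hochberg adjusted p over these genes is under 0.05. Of the 57 members, 51 passed this filter. The 6 members below it had FPKM values of at most 0.941 in any library.

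ACSS1, the mitochondrial acetyl-CoA synthetase, fell to less than 50% of its control level, and 10 further members were called with smaller changes. ECHDC1, ACADSB, ALDH1B1, ECI1, ACAA2, CPT1A and ALDH2 also fell, and DBT, SUCLG2 and ACAD8 rose. The 11 called members are 21.6% of the 51 tested, where 15.1% of all tested genes were called. The 8 members that fell are 15.7% (8.07% of all tested genes), and the 3 that rose are 5.88% (7.05% of all tested genes). The direction of this split rests on the scaling and on 1 library. With library totals in place of TMM factors, 8 members were higher and 4 lower, while 1455 of all tested genes were higher and 768 lower. Without the third sh-NC library, 6 members were higher and 3 lower, while 669 of all tested genes were higher and 729 lower. Past a 2-fold change with an unadjusted P up to 0.05, ACSS1 was the 1 member lower (1.05% of all tested genes) and 0 members were higher (1.55% of all tested genes). The median log2 fold change was -0.038 over the members and -0.0010 over all tested genes. In 26 of the 51 members the CPM of the groups did not overlap, 13 of them higher and 13 lower, and in 37.1% of all tested genes the groups did not overlap either.

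**Figure D1:**
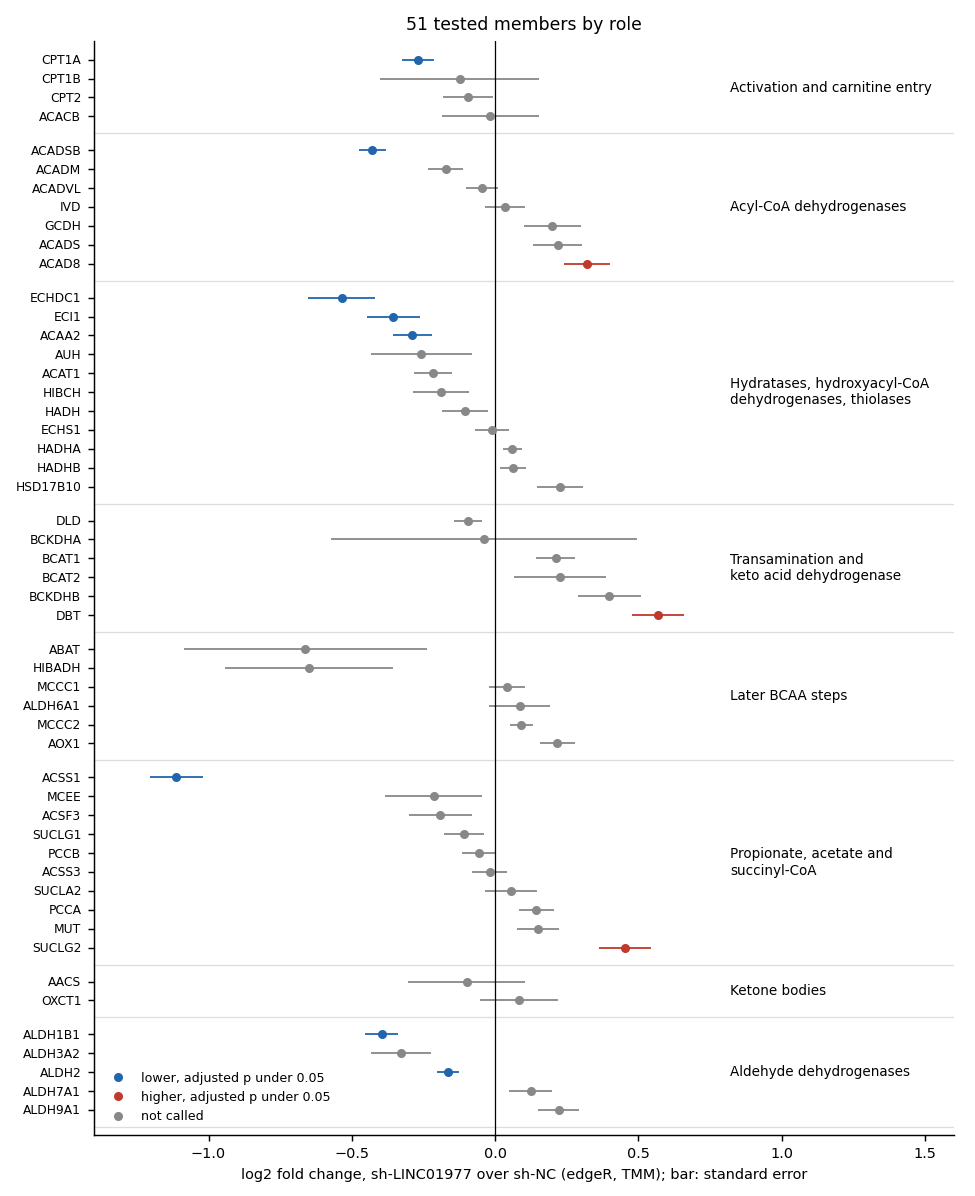
Log2 fold change (horizontal axis, sh-LINC01977 over sh-NC) of the 51 tested members, grouped by role, with the standard error as a bar. Blue points are called lower, red points called higher and grey points not called. ACSS1 lies farthest to the left at -1.11, and DBT farthest to the right at 0.57.

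The promoters of ALDH1B1 and DBT are shown because both members were among those called under every alternative tried. The windows, credited to RefSeq (GRCh38.p14), run from 250 bases before to 50 bases after an annotated start and are written 5′ to 3′ on the gene's strand. Capitals mark the GC box (GGGCGG, or CCGCCC on the other strand) and the CCAAT box (CCAAT, or ATTGG on the other strand). The ALDH1B1 window is chr9:38392452-38392751 (plus strand) and that of DBT chr1:100249785-100250084 (minus).
ALDH1B1: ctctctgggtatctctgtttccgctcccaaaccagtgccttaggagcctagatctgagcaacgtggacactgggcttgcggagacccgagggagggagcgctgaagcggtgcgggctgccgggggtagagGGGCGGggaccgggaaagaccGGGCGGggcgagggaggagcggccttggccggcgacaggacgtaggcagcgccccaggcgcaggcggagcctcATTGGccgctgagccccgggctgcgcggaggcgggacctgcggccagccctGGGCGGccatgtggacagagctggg
DBT: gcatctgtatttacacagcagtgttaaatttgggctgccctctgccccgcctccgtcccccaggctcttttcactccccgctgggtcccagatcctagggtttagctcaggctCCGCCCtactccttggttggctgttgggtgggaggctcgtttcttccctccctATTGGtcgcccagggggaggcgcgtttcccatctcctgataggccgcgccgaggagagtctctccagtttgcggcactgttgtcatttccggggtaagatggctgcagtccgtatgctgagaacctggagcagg
The ALDH1B1 window holds 3 GC boxes and that of DBT holds 1, while a CCAAT box is in both. Both boxes thus occur in a member that fell and in a member that rose. Of the 10 called members with a window, 8 had a GC box (45.0% of all RefSeq windows). Only the 2 shown here had a CCAAT box (34.6% of all RefSeq windows).

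A window was matched for 52 of the 57 members. Each is that of the RefSeq start nearest to the 5′ end in the deposited table, at a distance of 0 to 24367 bases. For CPT1B the window belongs to the symbol CHKB-CPT1B, 4534 bases away, and holds a GC box and a CCAAT box. A GC box was in 37 of the 52 (71.2%) and in 45.0% of all 35116 windows, and the median GC content was 65.0% in the members and 58.7% in all windows. A CCAAT box was in 21 (40.4%, all windows 34.6%). TATAAA was in 2 (3.85%, all windows 11.5%). AGGTCA, the core that many nuclear receptors bind, was in 6 (11.5%, all windows 13.8%), none of them a called member. The longer TCAAGGTCA, known from estrogen-related receptors and containing AGGTCA, was in 0 members (all windows 0.353%), and TGACGTCA, known from cyclic AMP responses, in 0 (all windows 1.85%). Both strands were searched, and a match or its absence describes only these letters in these windows.

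The first steps bring fatty acids into the mitochondrion. CPT1A, the carnitine palmitoyltransferase of the outer membrane that sets the pace of entry (ENSG00000110090, chromosome 11, 68754620 to 68844410, minus strand, GRCh38), had 45.3, 47.6 and 46.2 CPM in sh-NC and 39.8, 38.1 and 37.5 CPM in sh-LINC01977. All knockdown libraries lay below all controls, and CPT1A fell by 0.27 on the log2 scale (SE 0.055, edgeR adjusted p = 0.0211). This call holds in 7 of 16 alternatives, is lost with library totals (adjusted p = 0.0568), and is lost without any 1 library other than the first sh-LINC01977 library (edgeR adjusted p up to 0.0750). CPT2, which reforms the CoA ester at the inner membrane, had 23.9, 22.5 and 21.0 CPM in sh-NC and 22.5, 19.7 and 20.9 CPM in sh-LINC01977, with overlapping groups (log2 fold change -0.095, edgeR adjusted p = 0.511). Of the 7 members for activation and carnitine entry, 4 were tested, with 1 lower (8.07% of all tested genes) and 0 higher (7.05%). ACSBG1, ACSBG2 and CPT1C fell below the filter, and CPT1C, a carnitine palmitoyltransferase known from the brain, had counts of 7, 0 and 5 in sh-NC and 27, 65 and 16 in sh-LINC01977 (edgeR adjusted p = 0.138 in a fit without the filter).

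The acyl-CoA dehydrogenases introduce the double bond, each with its own substrates. Of 7 members, ACADSB fell, ACAD8 rose and 5 were not called, where 15.1% of all tested genes were called. ACADSB, which acts on short and branched acyl-CoA of the isoleucine route (ENSG00000196177, chromosome 10, 123008979 to 123058311, plus strand), had 139, 145 and 134 CPM in sh-NC and 106, 103 and 102 CPM in sh-LINC01977. The groups were well apart, and the level fell by 25.7% (log2 fold change -0.43, SE 0.048, edgeR adjusted p = 0.0028). ACAD8, the isobutyryl-CoA dehydrogenase of the valine route (ENSG00000151498, chromosome 11, 134253495 to 134265855, plus strand), had 26.1, 23.5 and 23.2 CPM in sh-NC and 31.1, 28.4 and 31.5 CPM in sh-LINC01977. Each knockdown library was above each control (log2 fold change 0.32, SE 0.081, edgeR adjusted p = 0.0432), and the call holds in 9 of 16 alternatives. It is lost without any 1 library other than the first sh-NC library (adjusted p up to 0.118). The dehydrogenases of straight chains did not pass the test: the log2 fold change was -0.046 for ACADVL (very long chains, adjusted p = 0.632), -0.17 for ACADM (medium chains, adjusted p = 0.112) and 0.22 for ACADS (short chains, adjusted p = 0.140). IVD, the isovaleryl-CoA dehydrogenase of the leucine route, was at 0.035 on the same scale (adjusted p = 0.773). The sign of ACADVL turned with library totals, to 0.020, and that of IVD turned without the first sh-LINC01977 library, to -0.020.

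Of 11 hydratases, isomerases, hydroxyacyl-CoA dehydrogenases, thiolases and other enzymes grouped with them, 3 fell (8.07% of all tested genes) and 0 rose (7.05%). ECHDC1, a decarboxylase that removes ethylmalonyl-CoA formed by side reactions (ENSG00000093144, chromosome 6, 127288710 to 127343609, minus strand), had 47.2, 49.7 and 57.8 CPM in sh-NC and 38.2, 30.5 and 38.0 CPM in sh-LINC01977. The groups did not overlap, and the level fell by 31.0% (log2 fold change -0.54, SE 0.12, edgeR adjusted p = 0.0273). ECI1, which shifts the double bond of unsaturated acyl chains (chromosome 16, 2239395 to 2252300, minus strand), had 19.3, 19.5 and 18.2 CPM in sh-NC and 16.0, 13.5 and 15.2 CPM in sh-LINC01977 (log2 fold change -0.35, SE 0.093, adjusted p = 0.0480). ACAA2, the mitochondrial thiolase of the last β-oxidation step (chromosome 18, 49782167 to 49813960, minus strand), had 119, 127 and 139 CPM in sh-NC and 102, 109 and 104 CPM in sh-LINC01977 (log2 fold change -0.29, SE 0.069, adjusted p = 0.0359). For both genes every knockdown library was below every control. Among 16 alternatives, the call holds in 9 for ECHDC1, in 6 for ACAA2 and in 4 for ECI1. The calls of ECHDC1 and ACAA2 are lost without any 1 library other than the first sh-NC library (adjusted p up to 0.0717 and 0.109), and that of ECI1 without any 1 library (up to 0.124). ACAT1, the thiolase of isoleucine and ketone body breakdown, stood at 130, 137 and 138 CPM in sh-NC and 114, 126 and 108 CPM in sh-LINC01977 (log2 fold change -0.22, adjusted p = 0.0790), with no overlap but no call. Without the second sh-LINC01977 library ACAT1 was called (adjusted p = 0.0426).

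HADHA and HADHB, the subunits of the trifunctional protein that handles long chains, were measured next to each other. HADHA had the highest FPKM of all members in sh-NC, 106 ± 1.4 (SD, n = 3), and HADHB had 31.8 ± 1.3. HADHA stood at 506, 504 and 510 CPM in sh-NC and 521, 530 and 533 CPM in sh-LINC01977, without overlap, at a log2 fold change of 0.060 (SE 0.032, edgeR adjusted p = 0.261). HADHB had 167, 178 and 169 CPM in sh-NC and 178, 184 and 175 CPM in sh-LINC01977 (log2 fold change 0.062, SE 0.046, adjusted p = 0.402), with overlapping groups. Their FPKM ratio was between 3.19 and 3.40 in sh-NC and between 3.24 and 3.42 in sh-LINC01977. The genes lie head to head on chromosome 2, with RefSeq starts 307 bases apart on opposite strands, and their promoter windows share 194 bases, shown here in capitals within the HADHB window (chr2:26244689-26244988, plus strand).
HADHB: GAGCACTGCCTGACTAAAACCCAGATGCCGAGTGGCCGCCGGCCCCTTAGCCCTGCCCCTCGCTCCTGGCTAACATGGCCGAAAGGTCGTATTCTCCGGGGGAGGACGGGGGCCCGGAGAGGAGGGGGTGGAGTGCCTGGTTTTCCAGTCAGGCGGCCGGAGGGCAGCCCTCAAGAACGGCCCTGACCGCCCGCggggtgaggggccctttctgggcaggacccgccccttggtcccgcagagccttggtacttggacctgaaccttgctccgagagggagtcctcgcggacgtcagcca
The deposited intervals of HADHA and HADHB overlap, and the sources used here do not state whether counting used strand, so reads in the overlap may be counted for either gene.

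BCAA breakdown begins with transamination and the branched-chain keto acid dehydrogenase complex. Here 6 of 7 members were tested, with 1 higher (7.05% of all tested genes) and 0 lower (8.07%). DBT, the transacylase core of the complex (ENSG00000137992, chromosome 1, 100186919 to 100249834, minus strand), had 13.0, 14.9 and 12.7 CPM in sh-NC and 20.1, 20.3 and 19.8 CPM in sh-LINC01977. The knockdown libraries were all above the controls, and the level rose by 48.3% (log2 fold change 0.57, SE 0.090, edgeR adjusted p = 0.0092). In sh-NC its FPKM of 0.951 was the lowest of the complex's subunits. BCKDHB, the β subunit of the decarboxylase, stood at 11.5, 12.7 and 14.2 CPM in sh-NC and 17.6, 17.4 and 15.6 CPM in sh-LINC01977, without overlap but short of the threshold (log2 fold change 0.40, SE 0.11, adjusted p = 0.0567), and it was called in 7 of 16 alternatives, among them without the third sh-NC library (adjusted p = 0.0491). DLD, the dehydrogenase subunit shared with other keto acid complexes, was at -0.093 on the log2 scale (adjusted p = 0.250). The transaminases BCAT1, of the cytosol, and BCAT2, of mitochondria, were at 0.21 (adjusted p = 0.0860) and 0.23 (adjusted p = 0.392), and BCAT1 was called without the third sh-NC library (adjusted p = 0.0357). BCAT1 had 7.18 and BCAT2 0.681 FPKM in sh-NC, a ratio of 10.6 ± 1.1 in sh-NC and 10.5 ± 1.1 in sh-LINC01977 (SD, n = 3).

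BCKDHA, the α subunit of the decarboxylase, was uneven within both groups. It had 16.4, 18.6 and 25.4 CPM in sh-NC and 30.8, 22.1 and 5.85 CPM in sh-LINC01977, a 5.26-fold range among the knockdown libraries. Its log2 fold change was -0.038 (SE 0.53, edgeR adjusted p = 0.972) with all libraries and 0.39 (adjusted p = 0.337) without the third sh-LINC01977 library. Its interval overlaps that of EXOSC5, which lies on the other strand, and those of AC011462.1 and AC011462.3, on the same strand.

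**Figure D2:**
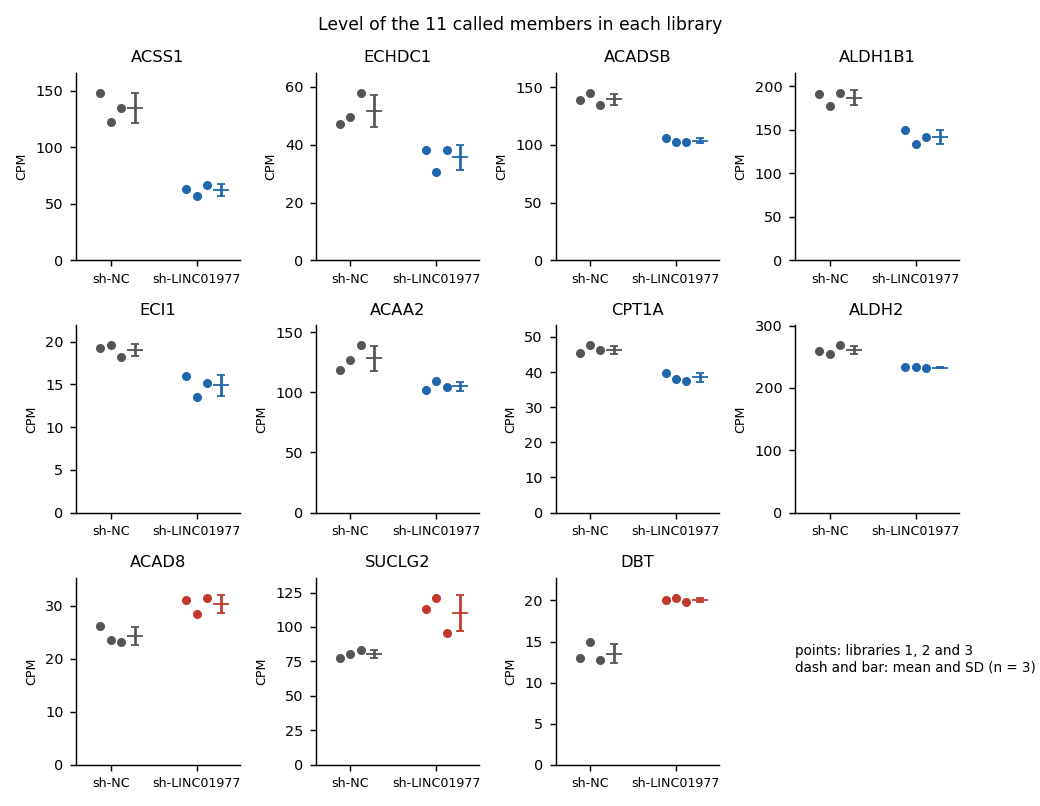
CPM (vertical axis, from 0) of the 11 called members in each library, with the mean and SD of each group (n = 3) beside the points. In each of the 11 panels the sh-LINC01977 points lie wholly below (blue) or wholly above (red) the sh-NC points, and the gap is widest for ACSS1, at 122 to 148 against 56.6 to 67.0 CPM.

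Among the 6 members of later BCAA steps, 0 were called in either direction (15.1% of all tested genes). MCCC1 and MCCC2, the subunits of the biotin-dependent carboxylase of the leucine route, were at log2 fold changes of 0.041 (edgeR adjusted p = 0.699) and 0.092 (adjusted p = 0.170). MCCC2 was called higher with library totals and with limma on log2(FPKM + 1). The FPKM ratio of MCCC1 to MCCC2 overlapped between groups, from 0.229 to 0.237 in sh-NC and from 0.210 to 0.239 in sh-LINC01977. AOX1, an aldehyde oxidase described after its values were seen, had 65.3, 69.0 and 73.1 CPM in sh-NC and 79.4, 83.2 and 78.4 CPM in sh-LINC01977, without overlap but short of the threshold (log2 fold change 0.22, adjusted p = 0.0602). It was called higher in 6 of 16 alternatives, among them library totals and DESeq2. A further pair of genes, also described after their values were seen, each had 1 library apart from the rest. ABAT, the transaminase of γ-aminobutyrate, had 244, 231 and 248 CPM in sh-NC and 200, 199 and 58.1 CPM in sh-LINC01977 (log2 fold change -0.66, adjusted p = 0.338). Without the third sh-LINC01977 library, its log2 fold change was -0.27 and was called (adjusted p = 0.0355). HIBADH, the hydroxyisobutyrate dehydrogenase of the valine route, had 49.6, 114 and 110 CPM in sh-NC and 58.1, 59.4 and 56.8 CPM in sh-LINC01977 (log2 fold change -0.65, adjusted p = 0.189). Without the first sh-NC library, which alone lay with the knockdown libraries, it was -0.95 and was called (adjusted p = 0.0032).

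The 10 members that handle propionate, acetate and succinyl-CoA held the largest fall and the second largest rise of the called members. ACSS1 (ENSG00000154930, chromosome 20, 25006230 to 25058980, minus strand) had 148, 122 and 134 CPM in sh-NC and 63.2, 56.6 and 67.0 CPM in sh-LINC01977. The highest knockdown library was far below the lowest control, and the level was 2.16-fold lower (log2 fold change -1.11, SE 0.094, edgeR adjusted p = 0.0013). Over 16 alternatives its log2 fold change ranged from -1.18 to -0.94. SUCLG2, the GTP-forming β subunit of succinyl-CoA synthetase (ENSG00000172340, chromosome 3, 67360460 to 67654614, minus strand), had 77.5, 80.4 and 83.3 CPM in sh-NC and 113, 121 and 95.8 CPM in sh-LINC01977. Each knockdown library was above each control, with the third library the closest, and the level rose by 37.0% (log2 fold change 0.45, SE 0.092, adjusted p = 0.0204). The call holds in 11 of 16 alternatives and is lost without the first or second library of either group (adjusted p from 0.0576 to 0.0691).

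The other subunits and the propionyl-CoA route did not pass the test. The subunits of propionyl-CoA carboxylase were at log2 fold changes of 0.14 for PCCA (edgeR adjusted p = 0.166) and -0.057 for PCCB (adjusted p = 0.563), where the sign of PCCB turned with library totals, to 0.0086. MUT, the methylmalonyl-CoA mutase, was at 0.15 (adjusted p = 0.226). Of the 8 members of this role that were not called, log2 fold changes ran from -0.21 to 0.15. OXCT1, which activates ketone bodies in tissues that burn them, was at 0.082 (adjusted p = 0.726).

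**Figure D3:**
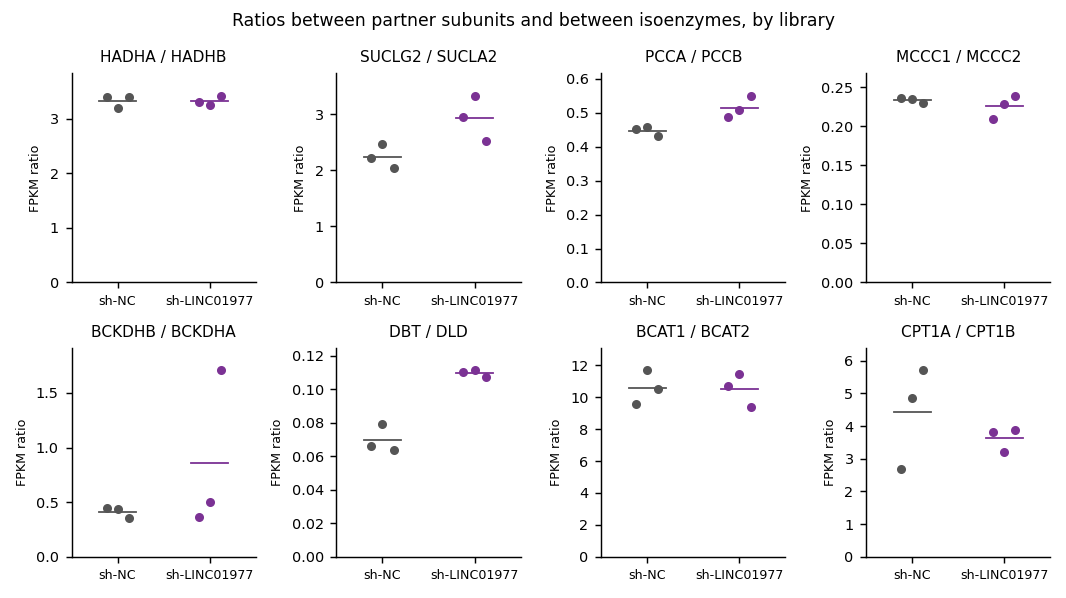
Ratio of the FPKM of paired subunits or isoenzymes (vertical axes, from 0) in each library, with a line at the group mean (n = 3). The groups are apart for SUCLG2 / SUCLA2, PCCA / PCCB and DBT / DLD and overlap for the other 5 pairs, among them HADHA / HADHB at 3.19 to 3.42.

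Ratios within a library do not depend on the scaling between libraries, so they were set beside the single genes. The alternative β subunits of succinyl-CoA synthetase, SUCLG2 and the ATP-forming SUCLA2, had FPKM ratios of 2.22, 2.47 and 2.04 in sh-NC and 2.96, 3.34 and 2.52 in sh-LINC01977. The ratio of DBT to DLD was 0.0662, 0.0794 and 0.0635 in sh-NC and 0.111, 0.112 and 0.108 in sh-LINC01977. That of PCCA to PCCB was 0.453, 0.458 and 0.430 in sh-NC and 0.486, 0.508 and 0.550 in sh-LINC01977. All 3 ratios were higher in every knockdown library than in any control, out of 8 ratios looked at, and the called genes SUCLG2 and DBT enter 2 of the 3. For single genes, the groups did not overlap in 37.1% of all tested genes. No test is given, since an exact permutation test of 3 libraries against 3 reaches no p under 0.1.

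Of 5 aldehyde dehydrogenases, 2 fell (8.07% of all tested genes) and 0 rose (7.05%). ALDH1B1, a mitochondrial enzyme of aldehyde oxidation (ENSG00000137124, chromosome 9, 38392664 to 38398661, plus strand), had 191, 177 and 192 CPM in sh-NC and 149, 134 and 142 CPM in sh-LINC01977. The groups were clearly apart, and the level fell by 24.0% (log2 fold change -0.40, SE 0.059, edgeR adjusted p = 0.0074). ALDH2, the main mitochondrial enzyme for acetaldehyde (chromosome 12, 111766887 to 111817529, plus strand), had 259, 255 and 268 CPM in sh-NC and 233, 233 and 231 CPM in sh-LINC01977. These groups did not overlap either, and the fall was the smallest of the called members, 10.8% (log2 fold change -0.17, SE 0.039, adjusted p = 0.0337), with the call holding in 4 of 16 alternatives and lost without any 1 library (adjusted p from 0.0635 to 0.0999). Other listed genes overlap the intervals of 5 of the 11 called members, ECHDC1, ECI1, ACAA2, ALDH2 and DBT.

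The called members were also counted by pathway. Of 20 tested members of fatty acid degradation, 6 fell (30.0%, against 8.07% of all tested genes) and 0 rose. Of 24 tested members of BCAA degradation that are not in fatty acid degradation, 0 fell and 2 rose (8.33%, near the 7.05% of all tested genes). With library totals, 1455 of all tested genes were called higher and 768 lower. The pathway counts were then 2 lower and 1 higher in fatty acid degradation, and 0 lower and 6 higher in the BCAA members. They also shrank with 1 library left out, where 2 or 3 fell and 0 or 1 rose in fatty acid degradation. In the BCAA members 0 or 1 then fell and 1 to 4 rose. Of all tested genes, 627 to 738 fell and 549 to 669 rose in these fits, against 1085 and 948 with all libraries. The median log2 fold change was -0.11 in the first group and 0.062 in the second. Of the 14 tested members common to fatty acid and BCAA degradation, 4 fell and 0 rose. The difference between the pathways itself was not tested.

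In sh-NC cells the FPKM of the 51 tested members ran from 0.662 for ACACB, an acetyl-CoA carboxylase isoform that regulates carnitine entry, to 106 for HADHA. After HADHA came ECHS1, the short-chain enoyl-CoA hydratase, at 69.2 ± 5.1, ALDH1B1 at 47.0 ± 2.0 and HSD17B10, a hydroxyacyl-CoA dehydrogenase of the isoleucine route, at 43.8 ± 4.6 FPKM (SD, n = 3). ALDH1B1 and HSD17B10 differed by less than the SD of HSD17B10. The called members were spread over this range, with ALDH1B1 ranked 3, SUCLG2 10 and DBT 49 of 51, at 0.951.

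**Figure D4:**
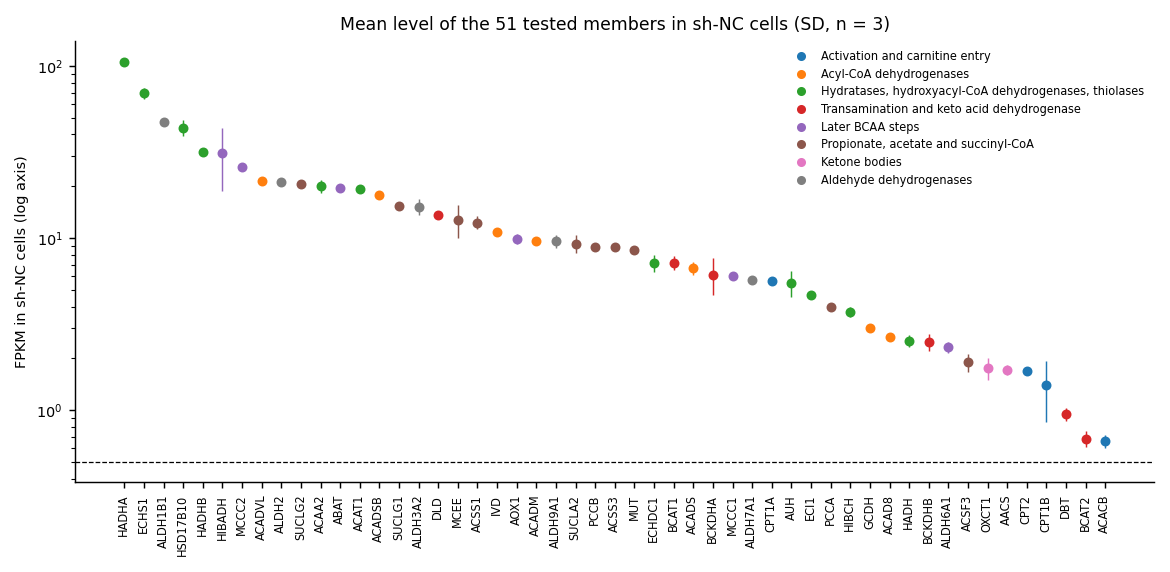
Mean FPKM of the 51 tested members in sh-NC cells (vertical log axis), in descending order and coloured by role, with the SD of 3 libraries as a bar. The dashed line is an FPKM of 0.5, and HADHA at 106 is the highest.

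Genes that serve or regulate these pathways were read from hand-written lists, chosen with earlier results of these data known. The counts from these lists only describe the listed genes, and enrichment was not tested. Of 11 regulators, 4 fell and 1 rose, where 8.07% of all tested genes fell and 7.05% rose. NR1H4, the bile acid receptor FXR, had 93.5, 101.6 and 106.5 CPM in sh-NC and 33.6, 35.7 and 42.5 CPM in sh-LINC01977 (log2 fold change -1.43, SE 0.10, edgeR adjusted p = 0.0009). PPARGC1A, a coactivator of mitochondrial and fatty acid oxidation genes, had 16.2, 18.5 and 17.3 CPM in sh-NC and 8.05, 9.68 and 7.96 CPM in sh-LINC01977 (log2 fold change -1.02, SE 0.12, adjusted p = 0.0029). Both were lower in every knockdown library by a wide margin. RXRA, the partner of many nuclear receptors, fell by 0.48 on the log2 scale (adjusted p = 0.0122), and ESRRA, the estrogen-related receptor α, by 0.49 (adjusted p = 0.0450). The call of ESRRA holds in 5 of 16 alternatives and is lost without any 1 library other than the second sh-LINC01977 library (adjusted p up to 0.124). PPARD, a fatty acid receptor, rose (log2 fold change 0.50, adjusted p = 0.0083), and PPARA, the main fatty acid receptor of liver, was at -0.11 with an SE of 0.71 (adjusted p = 0.940). Of 7 tested genes on a list of PPARA targets, 1 fell (ACOT1) and 0 rose. All 7 were below 0 on the log2 scale (-0.72 to -0.032), where 6751 of all 13452 tested genes were below 0. In 3 of them the groups did not overlap (37.1% of all tested genes). The list is short and holds no member, whether called or not.

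**Figure D5:**
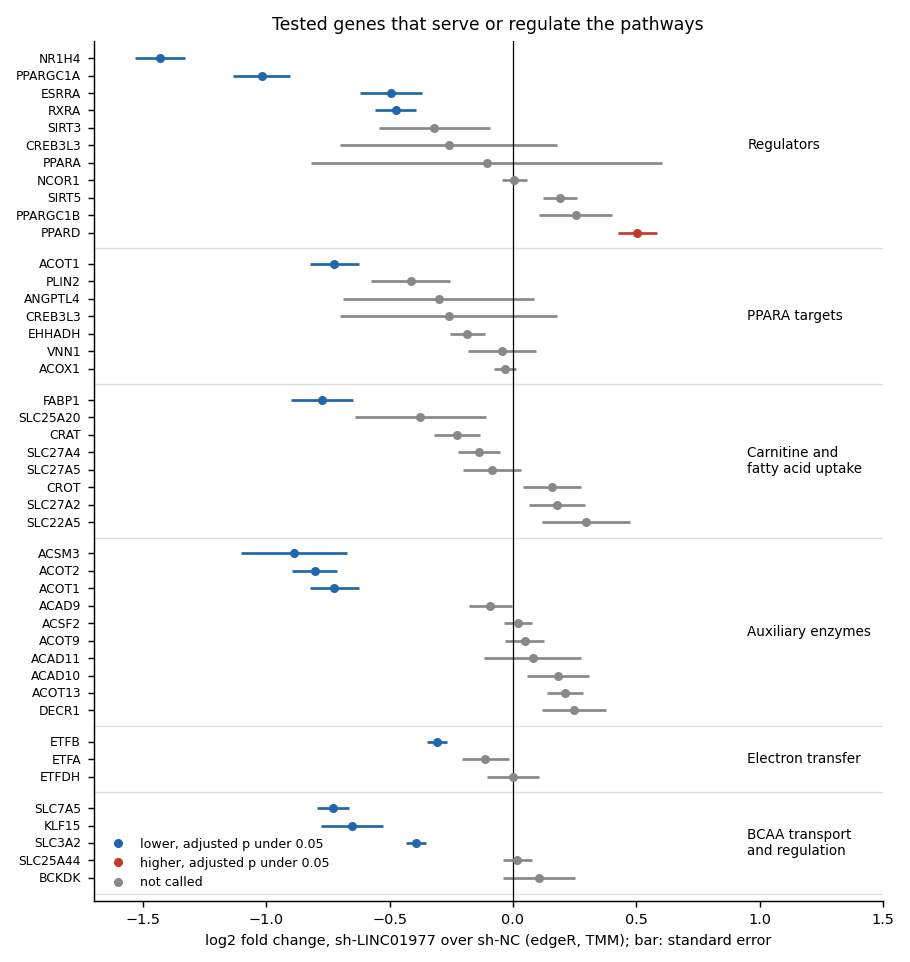
Log2 fold change (horizontal axis, sh-LINC01977 over sh-NC) of tested genes on the lists of regulators, PPARA targets, uptake, auxiliary enzymes, electron transfer and BCAA transport, with the standard error as a bar. Blue and red mark genes called lower and higher. NR1H4 at -1.43 and PPARGC1A at -1.02 lie farthest to the left.

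On the lists for electron transfer, uptake, auxiliary enzymes and BCAA transport, 8 of 26 tested genes fell and 0 rose, where 8.07% of all tested genes fell and 7.05% rose. Of 3 electron transfer genes, ETFB, a subunit of the flavoprotein that takes electrons from acyl-CoA dehydrogenases, fell by 0.31 on the log2 scale (edgeR adjusted p = 0.0047). Of 8 tested genes of carnitine handling and fatty acid uptake, FABP1, the liver fatty acid-binding protein, fell by 0.77 (adjusted p = 0.0098). Of 10 auxiliary enzymes, 3 fell: ACSM3, a medium-chain acyl-CoA synthetase, by 0.89 (adjusted p = 0.0377) and the acyl-CoA thioesterases ACOT1 and ACOT2 by 0.72 and 0.80 (adjusted p = 0.0055 and 0.0030). ACOT1 and ACOT2 are close paralogs, and reads may be shared between them. Of 5 tested genes of BCAA transport and regulation, 3 fell. SLC7A5 and SLC3A2, the light and heavy chain of a transporter for large neutral amino acids, fell by 0.73 and 0.39 (adjusted p = 0.0014 and 0.0021), and KLF15, a regulator of amino acid breakdown, by 0.65 (adjusted p = 0.0171). Of 11 tested cofactor genes, 0 were called. ETFB, FABP1, ACOT1, ACOT2, SLC7A5, SLC3A2, NR1H4, RXRA and PPARD kept their calls in all 16 alternatives. ACSM3 lost its call without any 1 of the sh-LINC01977 libraries (adjusted p up to 0.117), and KLF15 without the first or the third sh-NC or the first or the second sh-LINC01977 library (up to 0.0602).

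Other pathways of the deposited annotation were read for comparison. In the peroxisome, which holds a β-oxidation system of its own, 13 of 68 tested genes fell (19.1%, against 8.07% of all tested genes) and 1 rose. In oxidative phosphorylation 5 of 105 fell and 5 rose, and in the citrate cycle, which shares 4 members, 3 of 29 fell and 4 rose. In fatty acid biosynthesis, which shares 3 members among its 13 listed genes, 0 of 9 tested genes were called. The differences between these lists and the members were not tested.

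Most RNAs on a list of hepatocyte markers were lower in the knockdown libraries. Of 10 markers, 8 fell (8.07% of all tested genes) and 0 rose (7.05%). ALB (log2 fold change -1.09, edgeR adjusted p = 0.00018), HNF4A (-0.55, adjusted p = 0.0071) and AFP (-0.41, adjusted p = 0.0017) were among those that fell. APOB (0.0074, adjusted p = 0.902) and TTR (-0.17, adjusted p = 0.322) were not called. The summed FPKM of the 10 was 4892 to 5280 in sh-NC and 3399 to 3471 in sh-LINC01977. In bulk RNA, fewer cells of a kind and less RNA per cell cannot be told apart. The fibroblast list summed to 2.88 to 3.96 FPKM in sh-NC and 5.47 to 7.57 in sh-LINC01977, with COL3A1 and THY1 at or near 0 and COL1A2, DCN and LUM not in the table. Of its 7 genes, 2 were tested. PDGFRB rose (log2 fold change 1.47, adjusted p = 0.0062), and COL1A1 was not called (0.73, adjusted p = 0.0504). The leukocyte list summed to 626 to 634 FPKM in sh-NC and 544 to 559 in sh-LINC01977, nearly all of it LYZ, with PTPRC at or near 0, and the endothelial list to at most 0.441 FPKM. The part of these markers in the results above was not tested.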

How the data were processed

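RNA-seq was analysed in 3 sh-NC and 3 sh-LINC01977 libraries of HepG2 cells, grouped by their labels. Per the file headers, the authors deposited whole-number counts per gene, not normalized, and FPKM values scaled to transcript length and library total. HISAT2, StringTie and hg38 are named in the submitters' processing notes, and the annotation is not given in the sources used here. All 57 members are in GENCODE 29, 55 with the same interval. In the 51 tested members FPKM and count differed by a fixed multiple per gene and library to within 1.11%. No column belonged to a sample outside the series.

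Counts were tested with edgeR 4.0.16 in R 4.3.3 (quasi-likelihood, TMM, Benjamini-Hochberg over 13452 genes whose FPKM averaged 0.5 or more) after a test on simulated counts. Genes below the filter were read from a fit of all 29153 genes. The members, gene lists and tests were chosen with earlier results of these data known. Named members are those called, up to 12 in each direction, and those on a list of key steps. Other genes come from lists of cofactors, electron transfer, uptake, auxiliary enzymes, regulators and transport, with values for those called. Alternatives were DESeq2 size factors, library totals, upper quartile factors, other filters, counts divided by 4, DESeq2 1.42.0, limma 3.58.1 on log2(FPKM + 0.1) and log2(FPKM + 1), a replicate block, and each library left out. Counting error is small at 49929024 to 60441515 counts a library, and the number of libraries limits precision. Not every member below the filter and not every promoter window is reported here. Protein levels and fluxes were not analysed here.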

Additional observations from a re-analysis of the deposited data

How the results depend on the processing

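ACSS1, ACADSB, ALDH1B1 and DBT kept direction and call in all 16 alternatives, and the other 7 called members kept direction but lost the call in some. Members called higher were 3 in the fit as reported, and 8 with library totals, 5 with upper quartile factors, 5 at a mean FPKM of at least 1, 5 with DESeq2, 6 with limma on log2(FPKM + 0.1) and 7 with limma on log2(FPKM + 1). Members called lower were 8, and 4 with library totals, 5 without the filter, 3 with limma at either pseudocount, 6 with upper quartile factors and 10 with DESeq2. With 1 library left out, called members ranged from 1 to 6 higher, with 6 without the third sh-NC library, and from 3 to 6 lower. Without the filter 1 member, CPT1C, passed a fold change of 2 upward, and with limma on log2(FPKM + 1) 0 passed it downward. The median of the members turned from -0.038 to 0.020 with library totals, which move the median of all genes to 0.065, and to 0.018 and 0.016 with limma. The signs of uncalled members turned for ACADVL (0.020 with library totals, 0.018 and 0.017 with limma), PCCB (0.0086, 0.0073 and 0.0066), BCKDHA (0.020 with library totals, -0.52 to 0.39 with 1 library left out, above 0 without the third library of either group), OXCT1 (-0.031 to 0.19 with 1 library left out, below 0 without the third sh-NC library) and IVD (-0.020 to 0.084, below 0 without the first sh-LINC01977 library). The causes were not tested beyond the scaling itself. Over all genes, 948 were called higher and 1085 lower, and 1455 and 768 with library totals. Same-numbered libraries did not deviate together (correlations -0.029, 0.017 and 0.055), and the labels state no pairing. With 3 libraries a group, a weak pairing could be missed. In a fit with a replicate block 1 member was called higher and 5 lower, and 636 and 754 of all genes. The 6 untested members lie below the filter, where counts limit what can be seen.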
